A study of Homo sapiens with 6 samples.

Results

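Caspases carry out programmed cell death, and the inhibitor of apoptosis proteins hold them back. The genes described here are 8 of that machinery in A549 cells, an established human line of lung adenocarcinoma origin: the caspases CASP6, CASP8 and CASP9, the caspase activator APAF1, and the inhibitors CFLAR, XIAP, BIRC2 and BIRC3. They were taken by symbol from the 17787 symbols listed in any library, and all 8 were listed in every library and among the 12555 genes tested. Messenger RNA was sequenced from 3 libraries labelled siFOXD3, named for a small interfering RNA against the forkhead transcription factor FOXD3, and from 3 libraries labelled siNC, with the genotype label wild type, which served as the control. All libraries are labelled as A549, and no other allele or agent is named in the labels. The sources used here give neither the siRNA sequences nor the dose or harvest time. Whether replicates were separate cultures is not stated; if not, p-values reflect technical spread alone.

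Apoptosis starts along a pair of routes. In the extrinsic route, ligands of the tumour necrosis factor family bind death receptors, the adaptor FADD gathers CASP8, and CFLAR, a catalytically inactive relative of CASP8 known as c-FLIP, competes for the same platform. In the intrinsic route, cytochrome c leaves the mitochondria and APAF1 assembles into the apoptosome, which activates CASP9; both routes end in executioner caspases, among which CASP6 is known for cleaving lamins. XIAP inhibits caspases by direct binding, while BIRC2 and BIRC3, known as cIAP1 and cIAP2, are ubiquitin ligases that act at the tumour necrosis factor receptor and restrain the noncanonical NF-kB pathway. BIRC3 and CFLAR are textbook NF-kB target genes.

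FOXD3 itself was at 0.0749 FPKM (fragments per unit of transcript length and of library size) in siFOXD3 replicate 2, not listed in siFOXD3 replicates 1 and 3, and at 0.152, 0.291 and 0.134 FPKM in the siNC libraries, near the limit of detection throughout. The libraries listed 15649 to 15752 symbols in siFOXD3 and 16227 to 16286 in siNC, and steps between low values gave a rough depth of 7550000 to 8800000 fragments per library. All 7 epithelial markers, among them EPCAM and KRT18, were above 1 FPKM in both groups. The extraction protocol in the labels speaks of retina, but none of 10 photoreceptor and retina markers reached 1 FPKM in any library, and their summed level was 0.918 to 1.18 FPKM in siFOXD3 and 0.941 to 1.497 FPKM in siNC.

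The messages of 3 inhibitors, BIRC3, CFLAR and BIRC2, and of the initiator CASP8 fell in siFOXD3 cells, and that of the inhibitor XIAP rose. CASP6, CASP9 and APAF1 did not pass the test. Thus 4 genes were called lower and 1 higher, at a Benjamini-Hochberg adjusted p under 0.05 in limma, a linear model fitted to log2(FPKM + 1) over all genes tested. Of all genes tested, 65.9% were called, 38.7% lower and 27.2% higher, so the number of calls among the 8 is near the background and is not a result about them. The median log2 fold change of the 8 was -0.23, beside -0.08 for all genes tested. The groups did not overlap for 5 of the 8, and for 70.7% of all genes tested. The log2 fold changes ran between -1.73 for BIRC3 and 0.28 for XIAP. In bulk RNA, fewer cells with a message and less message per cell cannot be told apart.

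**Figure D1:**
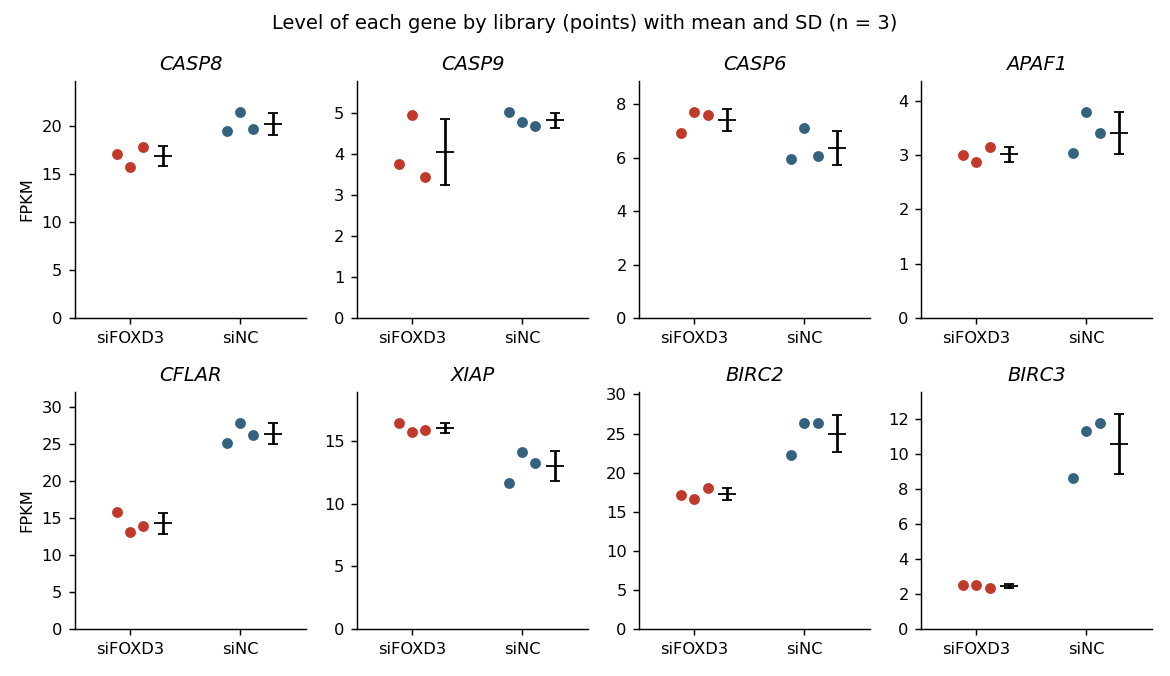
FPKM of each of the 8 genes in the 3 siFOXD3 libraries (red, left in each panel) and the 3 siNC libraries (blue, right); points are libraries, and the black mark with its bar is the mean with the SD. The groups do not overlap for CASP8, CFLAR, XIAP, BIRC2 and BIRC3, and they overlap for CASP9, CASP6 and APAF1.

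BIRC3 showed the largest change. It was at 2.53, 2.52 and 2.33 FPKM in the siFOXD3 libraries, against 8.62, 11.3 and 11.8 FPKM in the siNC libraries. Every siFOXD3 value lay far below the lowest siNC value, and the siFOXD3 libraries were nearly level with one another, with a coefficient of variation of 4.602% against 16.1% in siNC. The means were 2.46 ± 0.113 FPKM in siFOXD3 and 10.6 ± 1.699 FPKM in siNC (SD, n = 3 each), a ratio of 0.233, and the level thus fell by 76.7%. On the log2(FPKM + 1) scale the change was -1.73 ± 0.11 (SE; 95% interval -1.98 to -1.48; limma, Benjamini-Hochberg adjusted p = 6.44e-07). That scale shrinks changes of low genes, and the value was -2.05 with a pseudocount of 0.1 and -1.06 with a pseudocount of 5. Among the 12555 genes tested, the BIRC3 fall ranked 124th from the largest.

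CFLAR fell as well. It was at 15.8, 13.1 and 13.9 FPKM in siFOXD3 libraries and at 25.1, 27.9 and 26.2 FPKM in siNC libraries. The groups were well apart, with means of 14.3 ± 1.41 FPKM in siFOXD3 and 26.4 ± 1.41 FPKM in siNC (SD, n = 3 each) and a ratio of 0.541. Its log2 fold change was -0.85 ± 0.08 (SE; 95% interval -1.02 to -0.67; limma adjusted p = 6.13e-06), and 9.12% of all genes tested had a lower one. In GENCODE, CFLAR overlaps 2 processed pseudogenes and the antisense gene CFLAR-AS1, at 0 to 0.707 FPKM in the libraries, on the opposite strand, and noncoding genes on its own strand, whose reads may not be told apart from its own.

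BIRC2, the close relative of BIRC3, fell by less. It was at 17.1, 16.6 and 18.1 FPKM in siFOXD3, against 22.3, 26.4 and 26.3 FPKM in siNC. The values did not overlap, and the means of 17.3 ± 0.735 FPKM in siFOXD3 and 25.0 ± 2.36 FPKM in siNC (SD, n = 3 each) gave a ratio of 0.692. The log2 fold change was -0.50 ± 0.08 (SE; 95% interval -0.67 to -0.34; limma adjusted p = 0.000193), and 20.7% of all genes tested had a lower one.

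XIAP, the inhibitor that binds caspases directly, went the other way. It was at 16.5, 15.7 and 15.9 FPKM in siFOXD3 and at 11.7, 14.1 and 13.2 FPKM in siNC. The lowest siFOXD3 library stood above the highest siNC library, and the means were 16.0 ± 0.403 FPKM in siFOXD3 and 13.0 ± 1.22 FPKM in siNC (SD, n = 3 each), a ratio of 1.23. The log2 fold change was 0.28 ± 0.08 (SE; 95% interval 0.12 to 0.45; limma adjusted p = 0.00721), and 21.6% of all genes tested had a higher one. GENCODE lists processed pseudogene copies of XIAP, and an antisense gene and another processed pseudogene that overlap it on the opposite strand. The use of strand is not stated, which leaves its level uncertain.

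Among the caspases, CASP8, the initiator of the death receptor route, fell by 0.25 on the log2 scale (SE 0.07; 95% interval -0.40 to -0.10; limma adjusted p = 0.00893). It was at 17.0, 15.7 and 17.8 FPKM in siFOXD3 libraries, against 19.4, 21.4 and 19.7 FPKM in siNC libraries. All siFOXD3 values were below all siNC values, with means of 16.8 ± 1.06 FPKM in siFOXD3 and 20.2 ± 1.09 FPKM in siNC (SD, n = 3 each). A lower log2 fold change than that of CASP8 was found for 36.3% of all genes tested. With median-of-ratios scaling the CASP8 change was -0.16, at a limma adjusted p of 0.0493.

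CASP9, the initiator at the apoptosome, was at 3.76, 4.96 and 3.45 FPKM in siFOXD3 and at 5.03, 4.78 and 4.68 FPKM in siNC. Replicate 2 of siFOXD3 lay within the siNC range and replicates 1 and 3 below it. The log2 fold change of -0.22 ± 0.11 (SE) was not called (limma adjusted p = 0.119), with a 95% interval of -0.47 to 0.04. It was called without siFOXD3 replicate 2, at -0.34 (limma adjusted p = 0.0159), was -0.13 and uncalled without siFOXD3 replicate 3 (adjusted p = 0.377), and was 0.01 after quantile normalization.

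APAF1, the scaffold of the apoptosome, was at 3.002, 2.88 and 3.16 FPKM in siFOXD3 and at 3.03, 3.79 and 3.40 FPKM in siNC. The groups overlapped, and the log2 fold change was -0.13 ± 0.10 (SE; 95% interval -0.35 to 0.09; limma adjusted p = 0.26). It was 0.14 with quantile normalization, and not called there either (limma adjusted p = 0.211). It was -0.07 with median-of-ratios scaling and -0.07 without siNC replicate 2, both uncalled (limma adjusted p = 0.568 and 0.583).

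CASP6 was at 6.93, 7.72 and 7.60 FPKM in siFOXD3 and at 5.97, 7.11 and 6.05 FPKM in siNC. One siNC library, replicate 2, lay above the lowest siFOXD3 library. The log2 fold change of 0.19 ± 0.09 (SE; 95% interval -0.0037 to 0.39) was not called at a limma adjusted p of 0.077. It was called higher with quantile normalization (0.35, adjusted p = 0.00535), with median-of-ratios scaling (0.27, adjusted p = 0.0188) and without siNC replicate 2 (0.26, adjusted p = 0.0281). On the opposite strand CASP6 overlaps CCDC109B, a gene of the mitochondrial calcium uniporter at 9.35 to 17.2 FPKM, and reads of both cannot be told apart without strand.

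**Figure D2:**
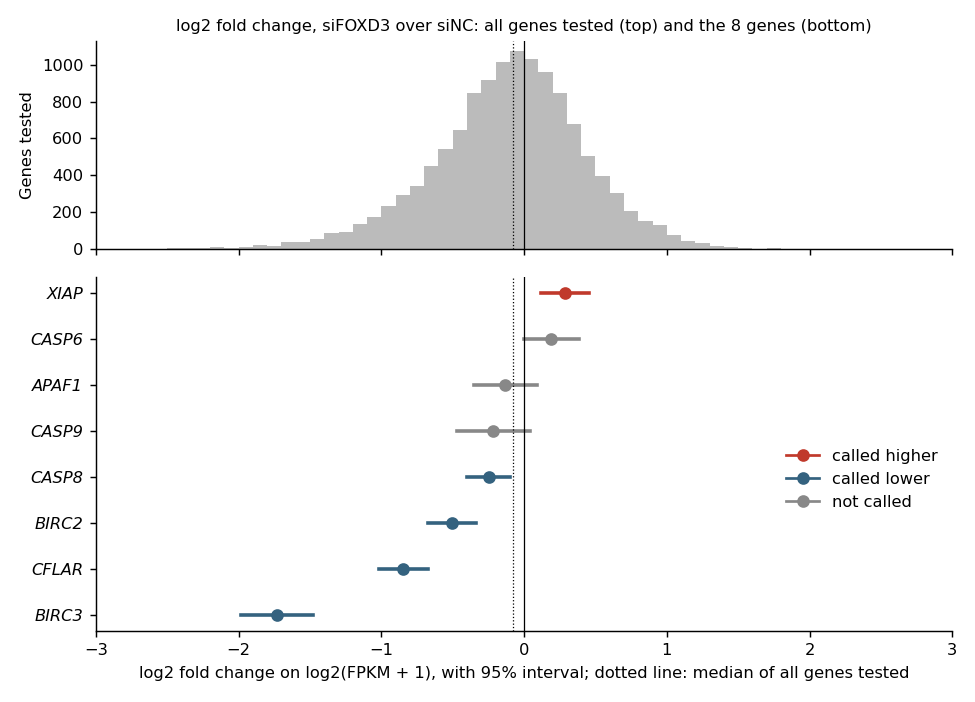
Log2 fold change, siFOXD3 over siNC, on log2(FPKM + 1). The upper panel counts the genes tested, leaving out 21 below -3 and 9 above 3, and the lower panel shows each of the 8 genes with its 95% interval; BIRC3 at -1.73 lies in the thin lower tail, while APAF1 at -0.13 lies near the median of all genes.

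The order of the 8 levels differed between the groups, compared per length as FPKM. In siFOXD3 it ran BIRC2, CASP8, XIAP, CFLAR, CASP6, CASP9, APAF1 and BIRC3. In siNC it ran CFLAR, BIRC2, CASP8, XIAP, BIRC3, CASP6, CASP9 and APAF1. The upper 4 in siFOXD3, at mean levels of 14.3 to 17.3 FPKM, overlapped with their neighbours in the order, and the lower 4 did not overlap with theirs. In siNC the overlapping neighbours were CFLAR with BIRC2 and XIAP with BIRC3. BIRC3 was thus last in siFOXD3 and at rank 5 in siNC. In siNC, replicate 1 was the lowest of the 3 libraries for 7 of the 8 genes; without it the BIRC3 change was -1.86, that of CFLAR -0.88 and that of XIAP 0.22, each still called.

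Ratios of FPKM within a library do not change with a single scaling factor per library; they were not recomputed after quantile normalization, which can change them. CFLAR stood at 0.928, 0.833 and 0.784 times the level of CASP8 in siFOXD3 libraries, against 1.29, 1.30 and 1.33 times in siNC libraries. In FPKM, the inhibitor CFLAR was thus below CASP8 in each siFOXD3 library and above it in each siNC library. Which message was the more abundant is not settled, since reads of overlapping genes may count toward CFLAR. BIRC3 stood at 0.148, 0.151 and 0.129 times BIRC2 in siFOXD3, against 0.387, 0.428 and 0.448 times in siNC. The XIAP to CASP9 ratio was 4.38, 3.16 and 4.602 in siFOXD3 and 2.32, 2.95 and 2.82 in siNC, also without overlap. The APAF1 to CASP9 ratio overlapped, with means of 0.765 ± 0.170 in siFOXD3 and 0.708 ± 0.0973 in siNC (SD, n = 3 each).

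The levels of XIAP, BIRC2 and BIRC3 summed to 36.1, 34.8 and 36.3 FPKM in siFOXD3 and to 42.6, 51.8 and 51.3 FPKM in siNC. XIAP made up 44.8% ± 0.940 of that sum in siFOXD3 and 26.8% ± 0.917 in siNC, and BIRC3 made up 6.88% ± 0.418 in siFOXD3 and 21.7% ± 1.36 in siNC (SD, n = 3 each). BIRC2 made up 48.4% ± 1.31 in siFOXD3 and 51.5% ± 0.702 in siNC (SD, n = 3 each), a smaller gap, again without overlap. The 3 caspases summed to 27.7 to 28.8 FPKM in siFOXD3 and 30.4 to 33.3 FPKM in siNC.

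**Figure D3:**
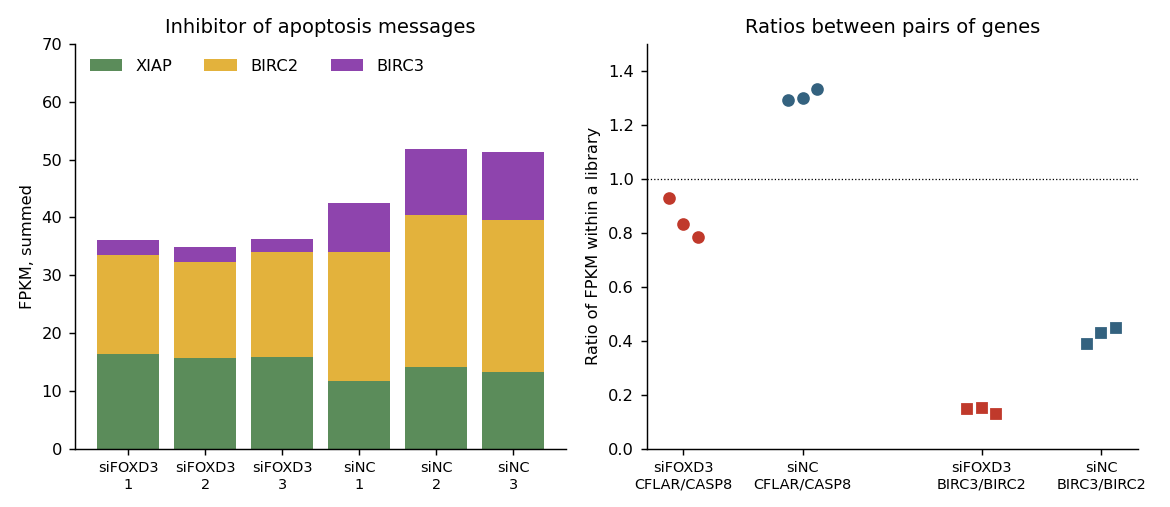
Left, summed FPKM of XIAP, BIRC2 and BIRC3 in each library, siFOXD3 first; right, the ratio of CFLAR to CASP8 (circles) and of BIRC3 to BIRC2 (squares) within each library, with a dotted line at equal levels. The sum is 34.8 to 36.3 FPKM in siFOXD3 and 42.6 to 51.8 FPKM in siNC, and the CFLAR to CASP8 points lie below the line in siFOXD3 and above it in siNC.

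The members sit partly in pairs on the chromosomes. In RefSeq's order of coding genes, BIRC3 and BIRC2 are neighbours on chromosome 11, and CFLAR, CASP10 and CASP8 follow each other on chromosome 2. CASP10, a second death receptor caspase that is no member, was at 3.66 ± 0.516 FPKM in siFOXD3 and 8.94 ± 1.40 FPKM in siNC (SD, n = 3 each; log2 fold change -1.09, limma adjusted p = 2.28e-05). Along chromosome 2 the log2 fold changes were -0.85, -1.09 and -0.25 for CFLAR, CASP10 and CASP8, and along chromosome 11 they were -1.73 and -0.50 for BIRC3 and BIRC2.

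The DNA just before the starts of the neighbours BIRC3 and BIRC2, and of CASP8, is shown because BIRC3 fell most and because BIRC3 and CASP8 hold the motif searched. Each line gives the 250 bases before a gene's first listed start in RefSeq, build GRCh38.p14, read 5′ to 3′ on the gene's strand. Capitals mark a match, on either strand, to an NF-kB-type motif of 10 bases (GGG, any pair of bases, TT, any base, CC).
BIRC3, chr11:102317234-102317483, plus strand: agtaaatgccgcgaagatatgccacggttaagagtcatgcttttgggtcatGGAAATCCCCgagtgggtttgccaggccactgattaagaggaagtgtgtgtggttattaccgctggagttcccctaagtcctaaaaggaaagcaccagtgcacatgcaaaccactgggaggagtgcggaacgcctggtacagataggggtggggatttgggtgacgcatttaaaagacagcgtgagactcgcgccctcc
BIRC2, chr11:102346964-102347213, plus strand: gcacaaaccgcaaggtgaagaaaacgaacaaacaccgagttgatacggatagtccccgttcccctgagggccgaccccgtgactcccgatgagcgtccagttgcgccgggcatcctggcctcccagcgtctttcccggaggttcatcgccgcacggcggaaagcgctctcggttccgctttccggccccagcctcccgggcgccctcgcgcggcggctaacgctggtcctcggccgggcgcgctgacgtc
CASP8, chr2:201233213-201233462, plus strand: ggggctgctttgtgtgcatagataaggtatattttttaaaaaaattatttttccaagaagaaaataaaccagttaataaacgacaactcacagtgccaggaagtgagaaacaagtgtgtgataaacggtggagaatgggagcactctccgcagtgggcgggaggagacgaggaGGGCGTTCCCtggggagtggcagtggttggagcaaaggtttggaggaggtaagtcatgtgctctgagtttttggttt
In BIRC3 the match, GGAAATCCCC, lies 199 to 190 bases before the start, and in CASP8 the match, GGGCGTTCCC, lies 77 to 68 bases before it. Of the 17 start windows of 300 bases that RefSeq lists for the 8 genes, these 2 held the motif, and 5.68% of all 35116 windows did. BIRC2, which fell, held none, nor did CFLAR. The forkhead core TGTTTAC was in 0 of the 17 windows and in 3.42% of all. A match is a description of letters and no sign of binding, and binding was not measured here. The BIRC3 stretch had 52.4% G or C and 11 CpG pairs, that of BIRC2 67.6% and 33, with medians of 58.0% and 11 over all windows.

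Profiles most like those of the extreme members were found by the smallest root mean square difference of centred log2(FPKM + 1) over the 6 libraries. For BIRC3 they were VNN1 (0.0706), PPM1M (0.0870) and KLHDC7B (0.0903). VNN1 and KLHDC7B averaged 0.174 and 0.640 FPKM in siFOXD3, against 3.09 and 4.37 FPKM in siNC. Both were under 1 FPKM in every siFOXD3 library and were tested only through their siNC levels. Their FPKM ratios of siFOXD3 to siNC were 0.0564 and 0.146, against 0.217 for PPM1M and 0.233 for BIRC3. The likeness of VNN1 and KLHDC7B to BIRC3 thus holds on the log2(FPKM + 1) scale and not in the FPKM ratio. For XIAP the most similar profiles were TAF1 (0.0157), SMARCA5 (0.0163) and CTBP2 (0.0164), differences smaller than those around BIRC3.

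Around the members, 73 of 85 genes on 8 pathway lists were tested, of which 31 fell, 20 rose and 22 were not called, beside 38.7%, 27.2% and the rest of all genes tested. Each list's count below is to be read beside these shares and is not a result about the list. The ± values are SDs (n = 3 each), and bare values in brackets are log2 fold changes called by limma. Among the other caspases, CASP4, which senses bacterial lipopolysaccharide, fell to 35.5 ± 0.780 FPKM in siFOXD3, against 62.8 ± 3.21 FPKM in siNC (-0.81). CASP1, the inflammasome caspase, fell to 0.646 ± 0.142 FPKM in siFOXD3, against 1.84 ± 0.207 FPKM in siNC (-0.79), and it shares sequence with CARD16, so its reads are uncertain. CASP2 rose to 17.6 ± 0.177 FPKM in siFOXD3, against 13.4 ± 1.46 FPKM in siNC (0.38).

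**Figure D4:**
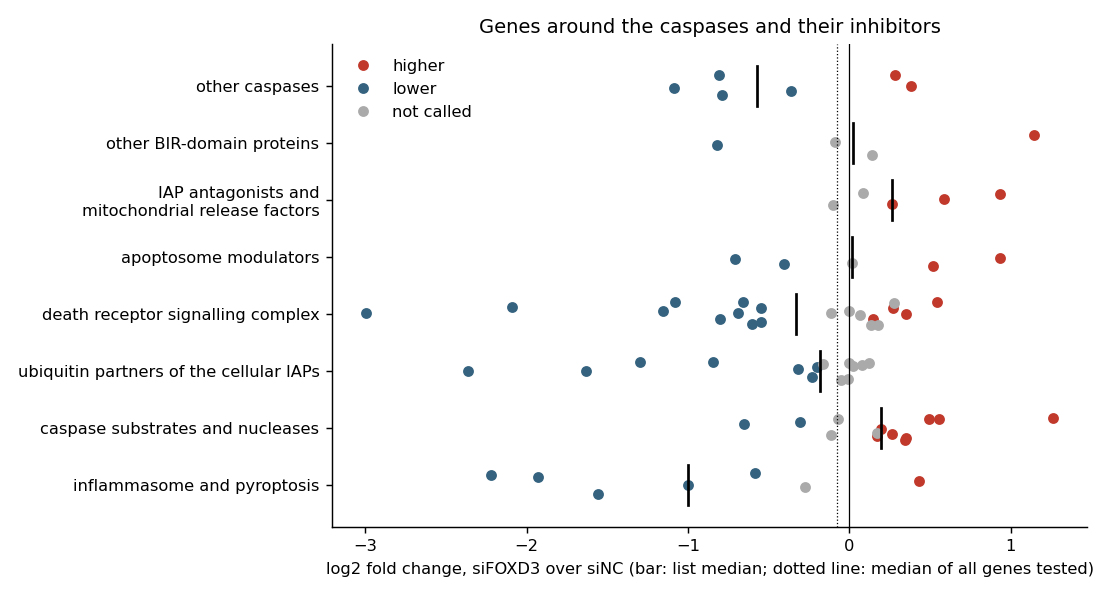
Log2 fold change, siFOXD3 over siNC, of each tested gene on the 8 pathway lists, coloured by its limma call; black bars are list medians and the dotted line is the median of all genes tested, -0.08. The inflammasome list has the lowest median (-1.003) and the list of antagonists and mitochondrial release factors the highest (0.26). On the latter, the antagonists DIABLO and HTRA2 were not called.

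Of the 4 other BIR-domain genes tested, BIRC5, the mitotic protein survivin, rose to 59.0 ± 0.805 FPKM in siFOXD3, against 26.3 ± 3.79 FPKM in siNC (1.146), and BIRC7 fell to 0.667 ± 0.161 FPKM in siFOXD3, against 1.94 ± 0.178 FPKM in siNC (-0.82). NAIP was at -0.09 and BIRC6, a giant ubiquitin ligase, at 0.14 on the log2 scale, neither called; BIRC6 was called higher with quantile normalization (0.21, adjusted p = 0.0366) and median-of-ratios scaling (0.22, adjusted p = 0.025). Both are named after their values were seen. Of 5 tested genes whose proteins antagonize IAPs or leave mitochondria, 3 rose, with a median of 0.26 over the 5. The IAP antagonists DIABLO, at 0.08, and HTRA2, at -0.10 on the log2 scale, were called neither way by limma. Both were picked after their values were seen. The genes that rose were CYCS, which encodes cytochrome c (57.8 ± 1.95 FPKM in siFOXD3 and 29.8 ± 1.98 FPKM in siNC, 0.93), AIFM1, a mitochondrial flavoprotein (0.59), and the nuclease ENDOG (0.26). ENDOG lost its call without siFOXD3 replicate 2 or 3 or siNC replicate 1 or 2 (limma adjusted p = 0.0782, 0.0961, 0.0699 and 0.0614). Of 5 apoptosome modulators, CYCS and ANP32A, an acidic nuclear protein (0.52), rose, and CARD8, an inflammasome sensor (-0.71), and UACA (-0.41) fell; UACA was at -0.23 and not called after quantile normalization (adjusted p = 0.0906).

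Of 20 death receptor genes tested, 10 fell and 4 rose, 6 gave no call, and the median log2 fold change was -0.33. Of all genes tested, 38.7% were called lower and 27.2% higher. The number that rose was 7 with quantile normalization and 2 without siFOXD3 replicate 1, siFOXD3 replicate 3 or siNC replicate 3. The ligand gene TNF was at 0.221 and 0.0806 FPKM in siFOXD3 replicates 1 and 2 and not listed in replicate 3, against 9.20, 6.40 and 7.82 FPKM in siNC. TNFAIP3, a ubiquitin-editing brake on the same receptor, fell to 3.72 ± 0.346 FPKM in siFOXD3, against 19.1 ± 2.21 FPKM in siNC (-2.09). The deubiquitinase CYLD (-1.16) and the death receptor TNFRSF25 (-1.08) fell too.

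The list of ubiquitin partners of BIRC2 and BIRC3 also holds RELB and NFKB2, which are NF-kB subunits. Of its 14 tested genes, 7 fell and 7 gave no call by limma, and the median was -0.18. Among all genes tested, 65.9% were called, 38.7% lower. RELB and NFKB2, the subunits of noncanonical NF-kB, fell to 2.93 ± 0.420 and 14.1 ± 0.644 FPKM in siFOXD3, against 19.2 ± 1.51 and 45.7 ± 0.336 FPKM in siNC (-2.36 and -1.63). RBCK1, of the linear ubiquitin ligase complex, fell to 29.8 ± 0.542 FPKM in siFOXD3, against 74.8 ± 1.65 FPKM in siNC (-1.30), and TAB3, an adaptor for ubiquitin chains, fell by 0.85. For MAP3K14, the kinase that BIRC2 and BIRC3 mark for breakdown, the value was 0.12, not called, and 0.28 with quantile normalization, where it was called (adjusted p = 0.0256); it was picked after its value was seen.

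Of 13 caspase substrates and nucleases, 8 rose and 2 fell, beside 27.2% and 38.7% of all genes tested, with a median of 0.20. The lamins LMNB1 (70.8 ± 1.47 FPKM in siFOXD3 and 28.96 ± 1.38 FPKM in siNC, 1.26) and LMNA (0.49), which CASP6 is known to cleave, and the nuclear protein ACIN1 (0.55) rose, and the actin-severing GSN fell (-0.65). Of 7 inflammasome and pyroptosis genes tested, 5 fell and 1 rose, beside the same shares of all genes tested, with a median of -1.003. The one that rose, CARD16, lost its call without siFOXD3 replicate 2 or 3 or siNC replicate 1 or 2. IL1B was at 0.161 ± 0.0584 FPKM in siFOXD3 and 4.45 ± 0.872 FPKM in siNC (-2.22), with the sensor NLRP1 (-1.93), the pore protein DFNA5, also known as gasdermin E (-1.56), and IL18 (-1.003) lower as well. NLRP1 was at 0.776 ± 0.174 FPKM in siFOXD3 and 5.775 ± 0.626 FPKM in siNC. Like IL1B, it was under 1 FPKM in every siFOXD3 library and was tested only through its siNC level. Among the list genes named by rule, the largest limma adjusted p was 0.0276, for ENDOG. These genes were picked from the called ones, so a value under 0.05 was set by the choice.

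Leukocyte markers stood beside these falls. Their summed level was 67.2 to 68.4 FPKM in siFOXD3 and 72.3 to 83.0 FPKM in siNC, with 2 of 8, CD14 and CD68, at 1 FPKM or more in either group. CD68 made up most of that sum, with 66.0 ± 0.820 FPKM in siFOXD3 and 74.0 ± 4.74 FPKM in siNC, and was called lower (-0.16, limma adjusted p = 0.0244). CD14 was called lower too, at 1.25 ± 0.304 FPKM in siFOXD3 and 2.92 ± 0.613 FPKM in siNC (-0.80, limma adjusted p = 0.000703). PTPRC, the common leukocyte antigen, averaged 0.194 FPKM in siFOXD3 and 0.227 FPKM in siNC, and CD2 was listed in no library. Fibroblast markers summed to 2.96 to 3.58 FPKM in siFOXD3 and 3.61 to 4.56 FPKM in siNC, and endothelial markers to 1.90 to 2.18 FPKM in siFOXD3 and 2.61 to 3.42 FPKM in siNC. Most of the fibroblast sum was COL1A1, at means of 3.20 FPKM in siFOXD3 and 3.91 FPKM in siNC, not called. Most of the endothelial sum was CDH5, at means of 1.82 FPKM in siFOXD3 and 2.73 FPKM in siNC, called lower (-0.40). The part of all these markers in the results was not tested.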

How the data were processed

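Sample titles gave the groups and replicate numbers of the 6 A549 libraries, which were prepared with an Illumina TruSeq kit, per the labels' protocols. The submitters' processing notes name TopHat, Cufflinks and build hg19, and they leave versions, annotation and strand unstated. The authors deposited FPKM per gene symbol, per the file headers.

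Rows of a symbol were summed and an absent symbol was set to 0. FPKM are not counts, so log2(FPKM + 1) was fitted with limma 3.58.1 in R 4.3.3 (trend and robust, group as the only term, two-sided) over genes with at least 1 FPKM in at least 3 libraries, with Benjamini-Hochberg adjustment over all of them. Data were simulated for the same 12555 genes, with 200 changed. The fit recovered 4.48% of changes of 0.25, 62.7% of 0.5 and 93.9% of 1 on the log2 scale, with 2 false calls. In the data 8278 genes were called, far more than were changed in the simulation, so its rates do not carry over to the data. Depth was estimated from steps between low values with an assumed fragment length of 150 bases, and supports no counting interval.

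Some genes of the caspase list are not reported here. The members and lists were chosen with earlier results of these data known. In each list the up to 4 called genes with the largest change are named, or the 2 most abundant where fewer than 2 were called. The 14 alternatives were 2 pseudocounts, no filter, 2 scalings, limma without trend and robust, a replicate block, the highest row per symbol, and each library left out. Promoter sequences and gene order come from RefSeq (GRCh38.p14), another build than hg19, and overlaps from GENCODE 29.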

Additional observations from a re-analysis of the deposited data

How the results depend on the processing

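BIRC3, CFLAR, BIRC2, CASP8 and XIAP kept their direction and their call under all 14 alternatives, and their largest limma adjusted p was 0.0493, for CASP8 with median-of-ratios scaling. Of 112 values of the 8 genes under alternatives, 106 kept both direction and side of the threshold. CASP6 became called with quantile normalization (0.35) and with median-of-ratios scaling (0.27), which took the number of genes called higher to 2 under each; CASP9 was 0.012 and APAF1 0.14 with quantile normalization, both uncalled. Leaving out 1 library gave 0.15 to 0.26 for CASP6 (called without siNC replicate 2) and -0.34 to -0.13 for CASP9 (called without siFOXD3 replicate 2), -0.20 to -0.07 for APAF1 (never called), and 1 to 2 genes called higher. The cause was not tested.

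Quantile normalization moved the median of all genes to 0.03, and 47.4% of calls were lower there, against 58.7% as deposited; relative to the all-gene median BIRC3 was at -1.65 as deposited and -1.58 with quantile normalization. With pseudocounts of 0.1 and 5, TNF was at -5.44 and -1.32, IL1B at -4.13 and -0.87, CASP1 at -1.39 and -0.28 and BIRC7 at -1.43 and -0.29, all called. A pseudocount of 5 gave -0.90 for NLRP1, -0.83 for DFNA5, -0.65 for CYLD and -0.57 for TNFRSF25, all called. NAIP was at 0.18 with quantile normalization, uncalled. Of 391 values of the other genes named by rule, 386 kept direction and side of the threshold. Those genes were chosen as called with the largest changes, which favours keeping the call, so the share does not describe the lists. Same-numbered libraries of the groups correlated at r = 0.06, 0.16 and 0.11 in their deviations from the group mean. The threshold set for pairing was 0.1, which replicates 2 and 3 passed and replicate 1 did not. Whether the numbers pair the libraries is thus not settled, and the main fit had no pairing term. With the replicate block 8172 genes were called, and BIRC3 was at -1.73 (limma adjusted p = 9.96e-06), with no call among the 8 changed.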
